A study of Mus musculus with 26 samples.

Results

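The 8 genes described here encode liver-enriched transcription factors: Hnf4a, Foxa1, Foxa2, Foxa3, Onecut1, Nr5a2, Prox1 and Nfia. They were taken by name from the RNA polymerase II (Pol II) gene tables, where they were 8 of 21075 genes with a measurable body, and their binding regions were taken within 10 kb of each gene's start. ChIP-seq, which sequences the DNA that an antibody pulls down with a protein, was made from whole liver of wild-type C57BL6/J male mice aged 7 weeks, at 8 times after a partial hepatectomy in which 3 of 5 lobes were cut out. The resected tissue was the 0 h sample, and the later samples were taken at 3, 8, 16, 24, 36, 48 and 168 h. Each time had 1 library for C/EBPalpha, 1 for C/EBPbeta and 1 for Pol II. The transcription factor Egr1 was profiled once, at 36 h, and a mock library from 0 h was not analysed here. Livers of 5 mice were collected at each time, but the labels do not say whether they were pooled. The 0 h tissue comes from intact livers and no sham-operated animals were analysed here, so time after surgery and the surgery itself cannot be told apart. There were no replicates, so no value below has a replicate error.

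Hepatocyte identity is held by a small network of factors that bind their own and each other's promoters and the promoters of plasma protein and metabolic genes. Hnf4a is a nuclear receptor at the centre of that network. The Foxa proteins are forkhead pioneer factors that can bind closed chromatin, Onecut1 (also called HNF-6) is a cut-homeodomain factor, and Nr5a2 (LRH-1) is a nuclear receptor of bile acid and cholesterol metabolism. Prox1 is a homeodomain factor of the hepatoblast and hepatocyte, and Nfia belongs to the nuclear factor I family. C/EBPalpha and C/EBPbeta are leucine zipper factors of hepatocytes, of which C/EBPalpha is linked to quiescence and C/EBPbeta to the regenerative response. After hepatectomy the remaining hepatocytes divide while they keep up liver function, so the values below show how Pol II over the genes of this network stood at each time.

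The deposited Pol II value is a signed sum over each gene's body, from about 500 bp past its start, and it was divided by the width of that body to give a signal per bp. Values below 0 are possible, since a background appears to have been taken away by the authors. The libraries did not share a scale. The factors that brought them to one scale, from 1479 genes above 0.5 units per bp in all 8 libraries, ran from 0.615 at 168 h to 1.51 at 16 h. The 3 h library stood apart, since 50.6% of its entries lay below 0 against 38.4% to 44.3% elsewhere, and its sum over all entries lay below 0. All 6 hepatocyte markers checked (Alb, Apoa1, Ttr, Fgb, Serpina1c and Tat) carried signal. Their summed deposited level was 258 to 915 units per bp over the libraries. Apoa1 alone gave 368 units per bp at 0 h and 651 at 3 h, while Serpina1c gave 2.07 and 1.04. The summed markers of cholangiocytes lay between -3.69 and 3.87, of endothelial cells between -0.720 and 1.03, of macrophages between 1.45 and 4.41, of stellate cells between -3.24 and -1.65, of lymphocytes between -2.70 and -0.780 and of red cell precursors between -1.08 and -0.155. Of 6 cholangiocyte markers listed, 4 were measured, and at 16 h, the time of their highest sum, Sox9 alone stood at 5.74. In whole tissue, fewer cells of a type and less Pol II per cell cannot be told apart.

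The 8 genes differed in how far their Pol II levels ranged. Hnf4a and Foxa3 had the narrowest log2 ranges, in an order that depends on the 0.5 added before log2, since it narrows the ranges of the low genes Nr5a2 and Nfia. In contrast, Foxa1 and Foxa2 had their highest level at 0 h and lay below it in all 7 later libraries. Onecut1 was highest at 48 h and lowest at 168 h. Nr5a2 and Prox1 stayed within 1 of 0 h on the log2 scale, and Nfia lay below 0 at 0 and 3 h and above 0 from 8 h on. No member passed the test for a smooth trend over time.

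Hnf4a, the central nuclear receptor, had the highest mean level of the 8 (row mm9 chr2:163376436-163398641, plus strand). Its deposited signal was 11.1, 12.6, 10.7, 18.6, 10.1, 12.6, 12.6 and 6.30 units per bp at 0, 3, 8, 16, 24, 36, 48 and 168 h. The high 16 h and low 168 h values are those of the libraries with the highest and lowest scaling factors, and after rescaling the range was 9.19 at 0 h to 13.2 at 48 h. Hnf4a stood between the 98.6th and 99.2nd percentile of measured genes in every library, a position that multiplying a library by a factor does not alter. Its log2 change against 0 h, on log2(rescaled signal + 0.5), was 0.43, 0.27, 0.40, 0.27, 0.17, 0.50 and 0.15 from 3 to 168 h. It was the only member above 0 h at all 7 later times, which 16.3% of all genes tested also were, and on the deposited scale its 8, 24 and 168 h values lay below that of 0 h. Its range over the 8 libraries was 0.50 on the log2 scale, and 1.30% of tested genes had a smaller range. That share is over tested genes of any level, and genes of a like level were not compared.

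Foxa3, a forkhead factor, had a range almost as narrow (row mm9 chr7:19598632-19608388, minus strand). It gave 6.16, 5.14, 6.22, 8.68, 4.68, 8.56, 7.23 and 3.69 units per bp as deposited in the same order of times. Rescaled, its lowest level was 5.11 at 3 h and its highest 7.56 at 48 h. Its log2 range was 0.52, with a smaller one in 1.44% of tested genes of any level, and its percentile among measured genes stayed between 97.0 and 98.4. Its changes against 0 h lay between 0.00 (3 h, just below 0) and 0.52 (48 h), with a mean of 0.24 ± 0.20 (SD over the 7 later libraries, which share the 0 h library). On the deposited scale the 3, 24 and 168 h values lay below that of 0 h.

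**Figure D1:**
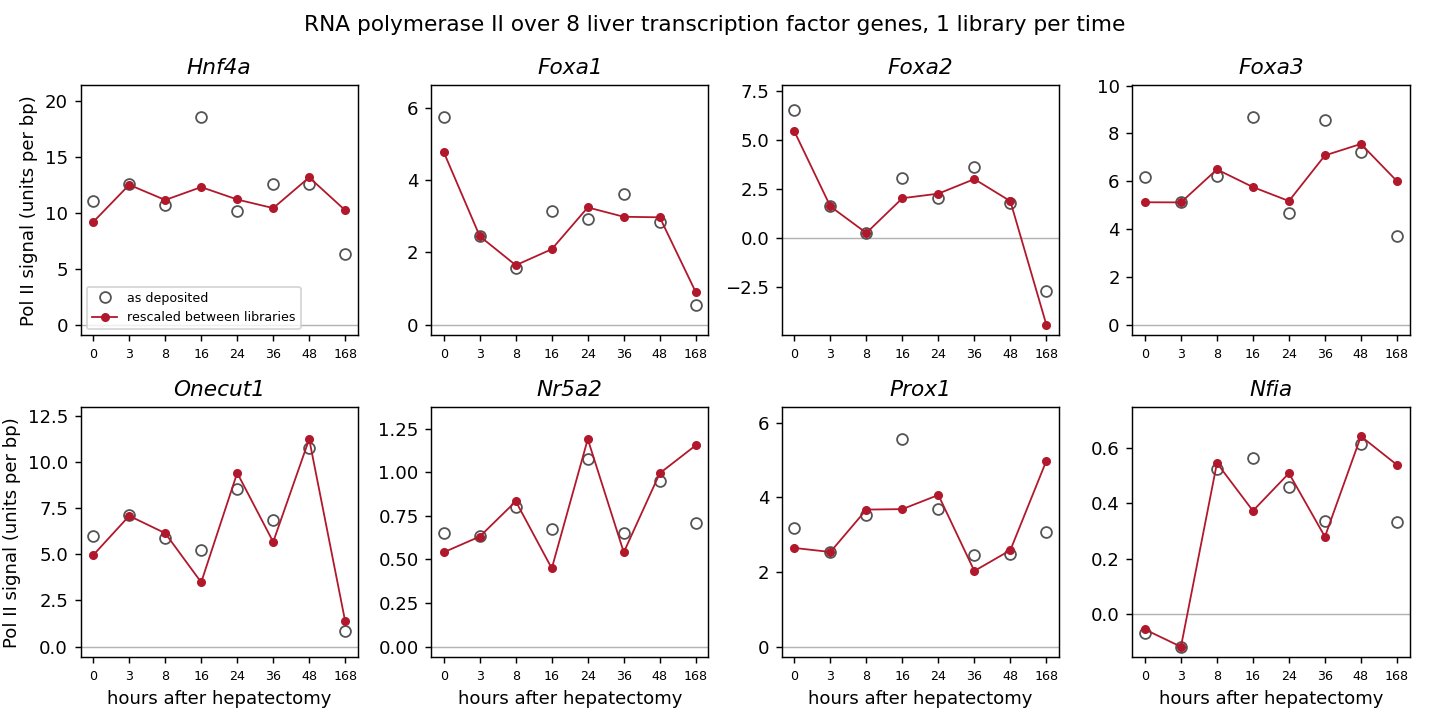
Pol II signal per bp of gene body (vertical axes, units per bp, a scale for each gene) at each time after hepatectomy (horizontal axes, hours, evenly spaced), with 1 library per time. Open circles are deposited values and filled points are values rescaled between libraries. Hnf4a stays between 9.19 and 13.2 and Foxa3 between 5.11 and 7.56 after rescaling, Foxa1 and Foxa2 are highest at 0 h and lowest at 168 h, and Foxa2 is below 0 at 168 h.

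Foxa1 and Foxa2, the close relatives of Foxa3, had their highest signal at 0 h. Their rows are mm9 chr12:58641618-58646608 and chr2:147868659-147870583, both on the minus strand. Foxa1 gave 5.76 units per bp at 0 h and then 2.46, 1.58, 3.16, 2.94, 3.62, 2.85 and 0.553 from 3 to 168 h. Foxa2 gave 6.54 units per bp at 0 h and then 1.62, 0.252, 3.07, 2.05, 3.63, 1.80 and -2.71. Both were highest at 0 h, were low at 8 h, were at a middle level from 16 to 48 h, and were lowest at 168 h, on the deposited and on the rescaled scale alike. Being below 0 h at all 7 later times was shared by 2 of the 8 members and by 19.3% of tested genes.

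The log2 changes of Foxa1 against 0 h were -0.84, -1.30, -1.03, -0.49, -0.60, -0.60 and -1.92 from 3 to 168 h. Those of Foxa2 were -1.49, -2.96, -1.23, -1.10, -0.76, -1.32 and -3.57. The means were -0.97 ± 0.50 for Foxa1 and -1.77 ± 1.06 for Foxa2 (SD over the 7 later libraries). All of these differences hang on the single 0 h library. The Foxa2 value at 168 h was set to 0 before the logarithm, so its size there depends on the added 0.5.

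Foxa2 also had the shortest body of the 8, of 1924 bp, and Foxa1 the next shortest, of 4990 bp. That of Foxa3 was 9756 bp. Any relation of body width to these profiles was not tested. Among 2178 measured genes with bodies of 1283 to 2886 bp, 93.4% lay at or below the Foxa2 value at 0 h. At 168 h, 1.97% lay at or below it. The 5th and 95th percentiles of those genes at 168 h were -1.94 and 2.94 units per bp, so the final Foxa2 value lay in the lower tail of the background-subtracted signal. It is a value under the background, and gives no level of Pol II. Over the 8 libraries the profiles of Foxa1 and Foxa2 had a Pearson's r of 0.95 and a Spearman's rho of 0.90, and r was 0.83 over the 6 libraries without 0 and 168 h. The points share the libraries and their scaling, so this is a description. Foxa3 had an r of -0.19 with Foxa1 and of -0.21 with Foxa2.

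The RefSeq promoter windows of the Foxa genes are shown because the 3 relatives differ in these Pol II profiles, and that of Nr5a2 because it was the one member whose window held a C/EBP match. Each runs from 250 bases before to 50 after a RefSeq start (build GRCm38.p6), and capitals mark matches to the motifs searched on both strands. The windows were chr12:57546062-57546361 for Foxa1, chr2:148045415-148045714 for Foxa2 (promoter 3 of 3, whose distance to the gene end is nearest to the row's length), chr7:19023490-19023789 for Foxa3 and chr1:136953581-136953880 for Nr5a2 (promoter 2 of 2), all on the minus strand.
Foxa1: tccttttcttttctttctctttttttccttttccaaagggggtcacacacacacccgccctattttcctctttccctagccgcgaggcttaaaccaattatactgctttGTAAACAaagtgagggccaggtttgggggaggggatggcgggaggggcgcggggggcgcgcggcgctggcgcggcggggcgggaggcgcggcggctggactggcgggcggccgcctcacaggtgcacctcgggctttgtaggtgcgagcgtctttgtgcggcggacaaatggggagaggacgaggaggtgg
Foxa2: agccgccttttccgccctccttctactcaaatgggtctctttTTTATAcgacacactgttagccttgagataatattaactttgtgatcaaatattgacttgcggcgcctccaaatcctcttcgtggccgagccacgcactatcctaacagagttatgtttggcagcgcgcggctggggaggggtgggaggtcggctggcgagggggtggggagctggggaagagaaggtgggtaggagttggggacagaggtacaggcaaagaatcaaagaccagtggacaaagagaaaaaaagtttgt
Foxa3: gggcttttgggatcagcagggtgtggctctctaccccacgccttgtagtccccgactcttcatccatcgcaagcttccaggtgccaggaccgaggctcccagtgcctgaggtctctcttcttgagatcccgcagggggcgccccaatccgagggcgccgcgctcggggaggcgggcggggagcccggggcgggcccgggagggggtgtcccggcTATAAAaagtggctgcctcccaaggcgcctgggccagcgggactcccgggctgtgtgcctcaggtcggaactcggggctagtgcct
Nr5a2: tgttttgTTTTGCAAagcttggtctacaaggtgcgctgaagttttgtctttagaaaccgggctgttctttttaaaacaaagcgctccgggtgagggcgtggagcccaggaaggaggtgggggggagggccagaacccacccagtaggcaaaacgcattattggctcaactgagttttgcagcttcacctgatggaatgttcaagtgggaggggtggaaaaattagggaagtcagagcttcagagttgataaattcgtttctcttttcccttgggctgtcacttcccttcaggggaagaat
The Foxa1 window holds a match to the forkhead motif TGTTTNC, on the other strand, at -141 from the start. The Foxa3 window holds TATAAA at -36, while that of Foxa2 holds it on the other strand at -208. The Nr5a2 window holds a match to the C/EBP motif TTGCNNAA, on the other strand, at -243. Positions are those of a match's first printed base, and no matches overlapped each other. The 8 members had 13 windows in all, of which 4 held the forkhead motif, 4 TATAAA, 2 the Onecut1 motif ATCAATA and 1 the C/EBP motif. Of all 32851 windows in the table, 20.5% held the forkhead motif, 13.6% TATAAA, 2.05% ATCAATA and 10.8% TTGCNNAA. None of the 13 held the Egr1 motif GCGNGGGCG, the Hnf4a motif CAAAGTCCA, the Nr5a2 motif CAAGGTCA or the palindromic NFI motif, which 5.55%, 0.475%, 1.56% and 0.0365% of all windows held. The Foxa1 and Foxa3 windows held 26 and 22 CpG pairs at a GC content of 62.3% and 69.0%. The 3 Foxa2 windows held 12, 23 and 13 CpG pairs at 54.3%, 64.0% and 51.7%, the last being the one shown. The median window held 7 CpG pairs at 52.7% GC.

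Onecut1, the cut-homeodomain factor (row mm9 chr9:74710228-74737455, plus strand), gave 5.96, 7.11, 5.88, 5.25, 8.50, 6.85, 10.7 and 0.840 units per bp as deposited. The 48 h library was the highest and the 168 h library the lowest on either scale. Its log2 changes were 0.48, 0.28, -0.45, 0.86, 0.18, 1.11 and -1.55, with a mean of 0.13 ± 0.89 (SD). Its log2 range was 2.65, and 86.7% of tested genes had a smaller one. That range rests on the 168 h library: without it, a choice made after seeing the data, the range was 1.56, and 57.4% of tested genes had a smaller one.

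Nr5a2, a nuclear receptor gene of bile acid and cholesterol metabolism (row mm9 chr1:138740853-138856504, minus strand), gave 0.652, 0.635, 0.799, 0.678, 1.08, 0.655, 0.952 and 0.711 units per bp over a body of 115651 bp. The 24 h library was highest as deposited and after rescaling. Prox1, the homeodomain factor (row mm9 chr1:191945660-191994059, minus strand), gave 3.18, 2.55, 3.52, 5.56, 3.68, 2.45, 2.47 and 3.06 units per bp. Its highest deposited value was at 16 h and its highest rescaled value, of 4.98, at 168 h, so its order depends on the scale. The log2 changes of Nr5a2 lay between -0.13 at 16 h and 0.70 at 24 h, and those of Prox1 between -0.32 at 36 h and 0.80 at 168 h. Neither differed from 0 h by 1 or more at any time, but with 0.05 added in place of 0.5 Nr5a2 was higher by 1.07 at 24 h and by 1.03 at 168 h.

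Nfia, the nuclear factor I gene (row mm9 chr4:97547312-97778992, plus strand), gave -0.0684 and -0.120 units per bp at 0 and 3 h and then 0.523, 0.563, 0.461, 0.338, 0.615 and 0.332 from 8 to 168 h. The first pair of libraries lay below 0 and the other 6 above it, with no overlap, and this holds on any multiplicative scale. The sign need not hold after an additive shift: the median measured gene lay at -0.0909 at 0 h and -0.208 at 3 h, both under Nfia. The Nfia values are small and spread over a row of 231680 bp, the widest of the 8. The log2 changes were 0.00, 1.06, 0.80, 1.01, 0.64, 1.19 and 1.06, and since 0 h lay below 0 they depend on the added 0.5. The row is 232181 bp long from its inferred start, while the RefSeq gene runs for 536934 bp from its first start, so upstream promoters of Nfia were not measured. The percentile of Nfia among measured genes was 52.4 at 0 h and 59.9 at 3 h, and 76.5 to 85.6 later.

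Counted at a log2 change of 1 or more, the members gave 5 higher and 10 lower values among 56 pairs of gene and time. At 3 h, 0 members were higher and 1 lower, against 18.1% and 21.4% of the 4779 genes tested. The 8 h library had 1 higher and 2 lower, against 14.4% and 12.7%. The 16 h library had 0 higher and 2 lower, against 15.1% and 10.6%. Foxa1 and Foxa2 made up the lower values at 8 and 16 h, and Foxa2 that at 3 h. At 24 h, 1 was higher and 1 lower, against 18.4% and 14.4%. At 36 h, 0 were higher and 0 lower, against 16.5% and 11% of genes. At 48 h, 2 were higher and 1 lower, against 15.3% and 13.5%. The higher values there were Nfia and Onecut1, and Nfia also made up that of 24 h. At 168 h, 1 (Nfia) was higher and 3 (Foxa1, Foxa2 and Onecut1) were lower, against 17.8% and 19.2%. With 8 genes, 1 gene is a large share, so no single count is read as a result about the members. The median change of the members was 0.00, 0.30, 0.01, 0.41, 0.09, 0.51 and 0.18 from 3 to 168 h (the 3 h value just below 0), and that of tested genes was -0.08, 0.06, 0.09, 0.07, 0.12, 0.05 and 0.00. With no rescaling the members' median at 168 h was -0.72, so its direction there depends on the scaling.

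**Figure D2:**
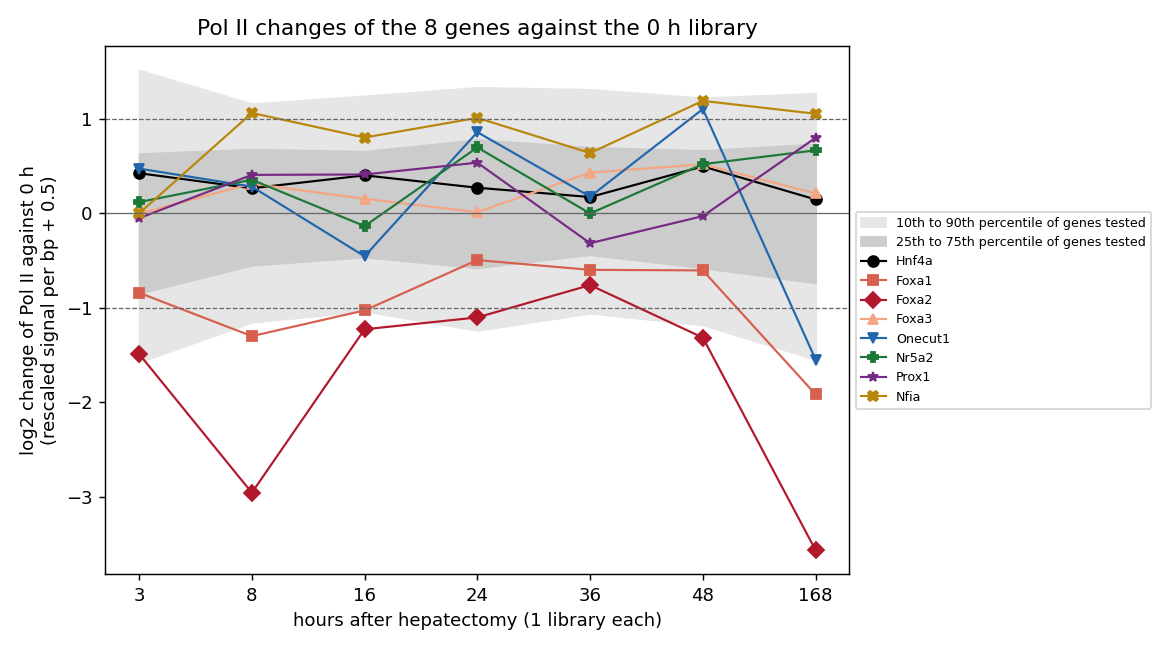
The log2 change of Pol II against the 0 h library (vertical axis, rescaled signal per bp + 0.5) for the 8 genes at 7 later times (horizontal axis, hours, evenly spaced), with 1 library per time. Grey bands hold the 10th to 90th and the 25th to 75th percentiles of the 4779 genes tested, and dashed lines mark changes of 1. Foxa2 is the lowest of the 8 at every time, reaching -3.57 at 168 h, and Hnf4a stays between 0.15 and 0.50.

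A smooth trend over the 8 libraries was tested with limma, with time entered by its order as a spline of 3 degrees of freedom. It called 1 of the 4779 genes at an adjusted p under 0.05, or 0.0209%, and 0 of the 8 members. Before adjustment, 459 genes had a limma p under 0.05, Foxa1 and Foxa2 among them. The limma p of Foxa2 was 0.00247 (adjusted p 0.455) and that of Foxa1 0.0229 (adjusted p 0.501). The limma adjusted p was 0.562 for Nfia, 0.622 for Onecut1, 0.724 for Prox1, 0.813 for Nr5a2, 0.901 for Foxa3 and 0.955 for Hnf4a. The spread in this test is that of libraries around a curve, and a difference present in 1 library is treated as noise, so a p that misses the threshold does not show a constant level.

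In order of mean rescaled level over the 8 libraries, Hnf4a came first at 11.3 ± 1.33 units per bp (SD). Onecut1 followed at 6.16 ± 3.14, Foxa3 at 6.03 ± 0.936, Prox1 at 3.27 ± 0.987, Foxa1 at 2.63 ± 1.17, Foxa2 at 1.51 ± 2.80, Nr5a2 at 0.792 ± 0.294 and Nfia at 0.339 ± 0.287. Hnf4a was above Onecut1, Foxa3 above Prox1 and Nr5a2 above Nfia in 8 of 8 libraries. Onecut1 was above Foxa3 in 3 of 8 and Prox1 above Foxa1 in 5. Foxa1 was above Foxa2 in 6 and Foxa2 above Nr5a2 in 6, so the order of those neighbours changed between libraries. The libraries are different times, so the SD holds changes over time and is no replicate error. The Foxa2 mean rests on single libraries: it was 2.35 ± 1.59 without 168 h and 0.951 ± 2.50 without 0 h (7 libraries each, left out after seeing the data). Of all neighbours, the ranges of Foxa3 and Prox1 alone did not overlap. Ranked by their log2 range instead, Hnf4a at 0.50 and Foxa3 at 0.52 were followed by Nr5a2 at 0.83, Prox1 at 1.12, Nfia at 1.19, Foxa1 at 1.92, Onecut1 at 2.65 and Foxa2 at 3.57. The median tested gene ranged over 1.60.

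For each member the 3 tested genes with the most similar log2 profile were sought among those with a range of 1 or more, over the 8 libraries. Fgb and Fgg, fibrinogen chain genes, and Stat5a, a cytokine-activated factor, were nearest to Hnf4a, each with an r of 0.90. Their own mean changes against 0 h were 2.34, 2.69 and 1.16, larger than the 0.31 of Hnf4a, whose profile they resemble in shape and not in size. Foxa1 was nearest to 6230427J02Rik (0.96), Galt, an enzyme of galactose breakdown (0.95), and Foxa2 (0.95). Foxa2 was nearest to Mus81, a DNA repair nuclease gene, Mrps34, a mitochondrial ribosomal protein gene, and 2810432D09Rik, each with an r of 0.96. Foxa3 came nearest to Prtn3 (0.99), Tas2r123 (0.95) and Tmpo (0.91), and Prtn3 ran from -1.57 to 6.54 units per bp as deposited. Onecut1 came nearest to Rnaseh2c (0.92), AC090123.68-2 (0.86) and 2210016L21Rik (0.85).

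Prox1 came nearest to Il15ra (0.95), 1700055D18Rik (0.94) and EG330305 (0.91). For Nr5a2 the nearest were Pde4b (0.97), AC129223.5 (0.96) and AC124717.3-2 (0.96), each of which had values below 0 in several libraries. Nfia was nearest to Fbxw2 (0.99), Phf5a (0.98) and C4bp, a complement regulator gene (0.98). An r over 0.9 was reached by 149 of 4127 genes for Nfia, but by 4 of 4128 for Hnf4a and 1 of 4127 for Onecut1. The genes share the 8 libraries and their scaling, so these likenesses are descriptions.

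Other liver transcription factor genes were listed by name for comparison. Of 22 listed, 18 were tested, and from 3 to 168 h there were 1, 0, 1, 2, 2, 0 and 2 higher and 8, 4, 5, 3, 5, 4 and 5 lower by 1 or more. Of all tested genes at the same times, 18.1%, 14.4%, 15.1%, 18.4%, 16.5%, 15.3% and 17.8% were higher and 21.4%, 12.7%, 10.6%, 14.4%, 11%, 13.5% and 19.2% lower. Their median changes were -0.68, -0.64, -0.25, -0.22, -0.60, -0.50 and -0.44, below the median of tested genes at every time. At each time the median of the 8 members lay above that of this list. These comparisons all share the single 0 h library, and the list was chosen with earlier results of these data known. The lowest mean changes were those of Cebpa (-2.50), Nr0b2, the bile acid-induced repressor SHP (-2.48), and Nr1i3, the xenobiotic receptor CAR (-1.33). Cebpa stood at 112 units per bp at 0 h and at 13.6 to 20.4 later. The highest were Zbtb20 (0.77), Nr1h4, the bile acid receptor FXR (0.47), and Onecut2, the paralogue of Onecut1 (0.32). None of the 18 passed the limma trend test, and the smallest adjusted p was 0.464, for Cebpa.

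Textbook targets of Hnf4a, Foxa, Onecut1 or Nr5a2 were listed as well, and all 16 were tested. From 3 to 168 h there were 2, 1, 0, 5, 2, 2 and 5 higher and 7, 3, 3, 3, 3, 3 and 3 lower by 1 or more. At 3 h the shares of all tested genes were 18.1% higher and 21.4% lower, and at 168 h 17.8% and 19.2%, with those of the other times as given for the factors. Their median changes were -0.75, 0.30, -0.17, 0.45, 0.03, 0.01 and 0.66. The lowest mean changes were those of Cyp8b1, the sterol 12-alpha-hydroxylase of bile acid synthesis (-3.05), Nr0b2 (-2.48) and Apoa2, an apolipoprotein gene (-1.62). The highest were those of Cps1, the first enzyme of the urea cycle (1.62), Tat, tyrosine aminotransferase (0.90), and F9, coagulation factor IX (0.71). None passed the limma trend test, and the smallest adjusted p was 0.515. Nr0b2 stands in both lists. The 3 h library, which stood apart above, held the lowest median of both lists.

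**Figure D3:**
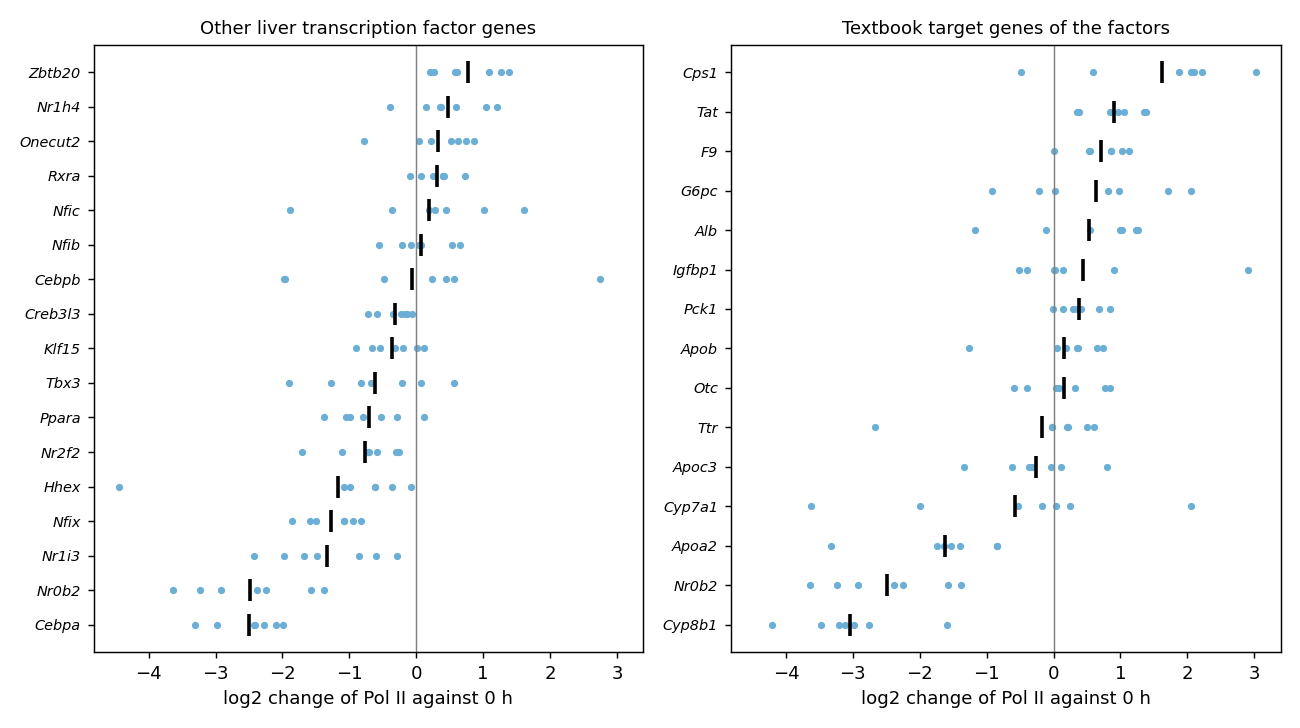
The log2 change of Pol II against the 0 h library (horizontal axes) for other liver transcription factor genes tested (left) and textbook target genes of the factors (right). Points are the 7 later libraries and black bars their mean; Cebpa at -2.50 and Cyp8b1 at -3.05 are the lowest means, and Zbtb20 at 0.77 and Cps1 at 1.62 the highest. In each panel 1 gene of the list is not drawn.

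Binding near the 8 genes was read from the authors' region lists, which held 20061 to 54574 regions for each C/EBP factor and time and 9895 Egr1 peaks. Distances run from the gene's start, as inferred from its row, to the region's centre, with a minus sign for upstream. The RefSeq starts of Foxa3 and Onecut1 gave the same gene length, and that of Foxa1 differed by -7 bp. For the closest RefSeq start the length differed by 163 bp for Foxa2, 1735 for Nr5a2, 2581 for Prox1 and 3047 for Hnf4a. For Nfia it differed by 304753 bp. Distances from RefSeq starts can therefore differ for these genes. A C/EBPbeta region lay within 10 kb of all 8 members in each of its 8 lists, against 47.6% of genes tested. C/EBPalpha did so for 7 members, against 41.7%, and the exception was Foxa1, which had none at 3 h. An Egr1 peak lay within 10 kb of Hnf4a, Foxa3 and Nfia, or 3 members, against 19.5% of tested genes. These shares stand beside a background of genes with Pol II, not of genes with the same number of regions around them.

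Region centres of all lists within 100 bp of each other were joined into sites, of which 69 near the members held a C/EBP region. Of these, 29 were in 1 list alone, and 9 of those 29 were in the C/EBPbeta list of 0 h, the longest of all. The share of sites in 1 list alone was not counted over all genes, so these counts have no background. A site present in all 16 C/EBP lists lay within 10 kb of 6 members, against 28.9% of tested genes. Those members were Hnf4a, Foxa2, Foxa3, Onecut1, Nr5a2 and Nfia, with 1 such site each. Foxa1 and Prox1 had none.

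By the starts inferred from the rows, Nr5a2 was the member with a constant site nearest to its start. The site lay at -374 bp (mm9 chr1:138857325-138857409). By the same starts, 9.9% of tested genes and no other member had a constant site within 1 kb. This order need not hold for RefSeq starts. From its first RefSeq start Foxa2 is 1668 bp longer than from its inferred start, and its constant site lay at -1742 bp. Further Nr5a2 sites lay at 814 and 1507 bp, each in 12 of 16 lists, and at -6766 bp in 15 of 16. The missing list at -6766 bp was that of C/EBPalpha at 36 h, whose region there was centred at -6491 bp. Neither of the 2 RefSeq starts of Nr5a2 gives the length of the deposited row, so these sites were not placed in the RefSeq window shown above.

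The constant site of Hnf4a lay at -9350 bp (mm9 chr2:163366531-163366636), and its best rank was 196 of 27061 regions in the C/EBPalpha list of 36 h. It lies 861 bp past the start of 0610008F07Rik, a gene on the opposite strand that RefSeq lists as a synonym of Hnf4aos, an antisense long non-coding RNA. The start of that gene is therefore nearer to the site than that of Hnf4a. Its own Pol II signal was 7.28, 3.00, 4.67, 8.78, 6.30, 5.88, 3.91 and 4.16 units per bp from 0 to 168 h. A further Hnf4a site at 4514 bp, inside the gene, was in 14 of 16 lists.

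The constant site of Foxa2 lay upstream at -1742 bp (mm9 chr2:147872800-147872913), and a site at 4808 bp, past the end of the gene, was in 12 lists. The C/EBPalpha region at the constant site ranked 7267 of 29383 at 0 h, 25246 of 31267 at 8 h and 9760 of 25972 at 168 h. That of C/EBPbeta ranked 14785 of 54574, 10579 of 36258 and 6147 of 25781 at those times. Any relation of this site to the Pol II values of Foxa2 was not tested. That of Foxa3 lay inside the gene at 7284 bp (mm9 chr7:19601523-19601673). Near the Foxa3 start, a site at -284 bp was in 5 lists, C/EBPalpha at 24, 36 and 168 h and C/EBPbeta at 0 and 168 h, and lies between the Foxa3 start and that of Sympk, at -838 bp on the other strand. Foxa1 had sites at 6660 and 7383 bp, both past the end of its 5491 bp, in 9 lists each. The site at 6660 bp was in the C/EBPalpha lists of 0, 8, 16, 24 and 36 h and the C/EBPbeta lists of 0, 8, 16 and 24 h, while that at 7383 bp was in the C/EBPalpha lists of 16, 36, 48 and 168 h and the C/EBPbeta lists of 0, 3, 36, 48 and 168 h. The lists are of unequal length and have no replicates, so a time at which a site is not listed does not show that binding was lost.

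Onecut1 had its constant site at 4892 bp (mm9 chr9:74714514-74714703), inside the gene. Nearer to its start it had sites of C/EBPbeta alone, at -26 and 1300 bp at 3 h, at 2428 bp at 3 and 36 h and at 1890 bp at 3, 36 and 168 h. Of its 11 C/EBP sites, 6 were of C/EBPbeta alone and 2 of C/EBPalpha alone. Prox1 had the most sites, 13, none of them in all 16 lists, with those at 3458 bp in 14 and at -4953 and 6352 bp in 13 each. Nfia had the fewest, 4, of which the constant one lay at 5664 bp (mm9 chr4:97552345-97552614) and each of the others was in 1 list. From its RefSeq start Nfia is 304753 bp longer than from the inferred start. Its sites are thus not shown to lie near a RefSeq start.

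**Figure D4:**
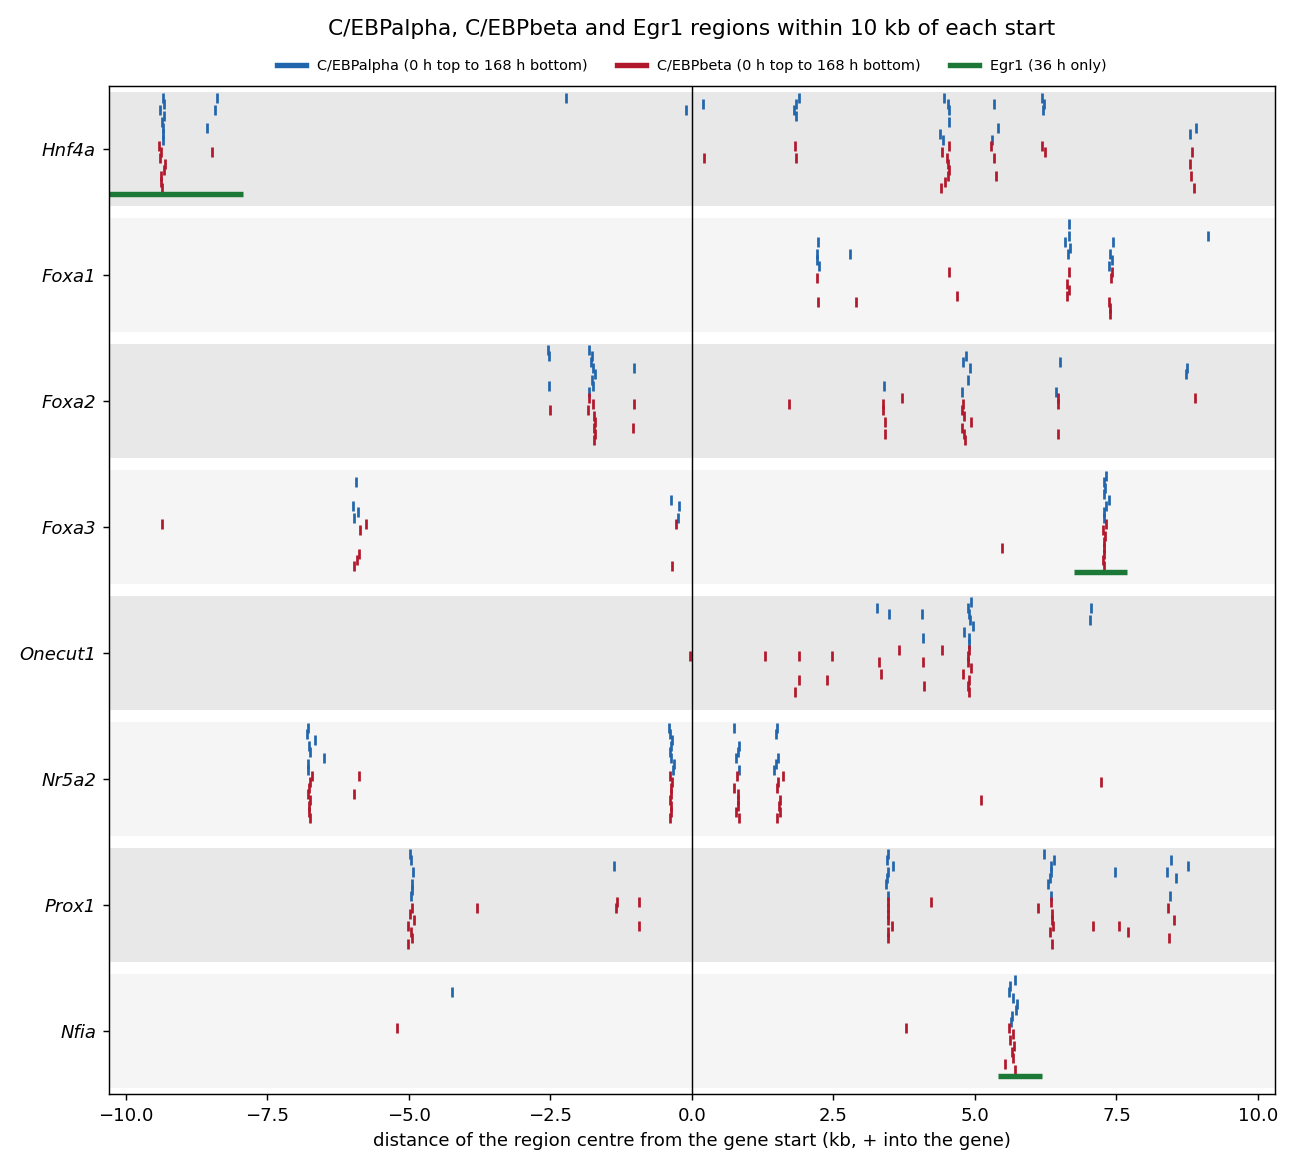
Authors' binding regions within 10 kb of each gene's start (horizontal axis, kb from the start, positive into the gene; vertical axis, the 8 genes). Ticks are region centres of C/EBPalpha (blue, 8 times from top to bottom) and C/EBPbeta (red, likewise), and green bars are Egr1 peaks at 36 h drawn at their width. Vertical stacks of ticks are sites listed at many times, as at -9350 bp of Hnf4a, -374 bp of Nr5a2 and 7284 bp of Foxa3.

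The Egr1 peaks within 10 kb of the members' starts each covered a constant C/EBP site. How many of all 9895 Egr1 peaks cover such a site was not counted, so this is a description. The Foxa3 peak was 946 bp wide, ranked 4891 of 9895 by the authors' score, and was centred 68 bp from the constant site. The Nfia peak was 773 bp wide, ranked 4282 and was centred 136 bp from it. The Hnf4a peak was 3145 bp wide, ranked 7498 and was centred 158 bp from it. The centre of that peak lies 1019 bp past the start of 0610008F07Rik, which is nearer than the start of Hnf4a. All 3 peaks lay more than 5 kb from the gene's start. Egr1 was profiled at 36 h alone, so its binding at other times is unknown.

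Counted over the whole body of the deposited row, Nfia held 10 to 21 C/EBPalpha and 12 to 30 C/EBPbeta regions per list, 5 Egr1 peaks and 6 constant sites. Nr5a2 held 6 to 13 C/EBPalpha regions, 9 to 21 C/EBPbeta regions and 1 Egr1 peak. Prox1 held 2 constant sites within its body, although none lay within 10 kb of its start. Foxa2, the shortest, held 0 C/EBPalpha regions and at most 1 C/EBPbeta region per list. Hnf4a held 3 to 9 C/EBPalpha and 4 to 7 C/EBPbeta regions per list, and the wider Onecut1 held 1 to 4 of each. The rows differ in width, and the counts were not set against it, so they give no order of binding between the genes.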

How the data were processed

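The labels' antibody and time gave the groups, and 25 of 26 samples were used. Per the submitters' processing notes, the build was mm9, and MACS 1.4.1 and Bowtie 0.12.7 were used in roles that are not stated. The authors deposited a signed score per gene for Pol II, scaled in a way not given in the sources used here, and region lists with a score, from 1 to 1000 in the C/EBP lists, used only to rank regions within a list. Depth is unknown, because no file holds read counts, and counting errors cannot be given. Library batches are not given, so a batch and a time cannot be told apart.

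Genes with a body of at least 500 bp on named chromosomes were kept, the longest entry per name. Starts were set 500 bp before the row by strand. Against RefSeq gene lengths (GRCm38.p6) the most frequent difference was 501 bp, in 922 of 15467 matched genes. Scaling factors were medians of ratios to the mean library. Negative values were taken as 0 and a pseudocount of 0.5 preceded log2, which understates the changes of low genes. The 4779 genes above 0.5 in 2 or more libraries entered the trend test (R 4.3.3, limma 3.58.1), with Benjamini-Hochberg adjustment, after a test on simulated data. In genes far above the pseudocount, rescaling moved changes by 0.26, 0.33, -0.33, 0.41, -0.01, 0.33 and 0.97 (log2) from 3 to 168 h. Changes with low values moved by other amounts, as that of Foxa2 at 168 h from -3.81 to -3.57. Named genes were the 8 members, the 3 most alike genes of each, and the 3 highest and 3 lowest mean changes of each list. The members and lists were chosen with earlier results of these data known. ChIP carries no strand, so overlapping genes cannot be told apart. Alternatives were other pseudocounts, filters, scalings, time curves, windows and region joins, and leaving out each library. Counts and medians of the 2 lists include 1 gene whose values are not reported here.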

Additional observations from a re-analysis of the deposited data

How the results depend on the processing

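In all 16 settings of the limma trend test, 0 members passed at an adjusted p under 0.05, and the smallest member adjusted p was 0.175, for Foxa2 with the spline on log2(hours + 1). The count of all genes was 0 with a pseudocount of 0.05, with no filter and with a straight line, against 1, and 0 to 1 when each library was left out in turn. Member and time values higher by 1 or more numbered 9 with a pseudocount of 0.05, 0 with 2 and 3 with no rescaling, against 5. The lower values numbered 5 with a pseudocount of 2, against 10. The shares of all tested genes were not counted in these settings, so these counts have no background. Of 280 member values under an alternative, 259 kept their side of the limit of 1. Of these 280, 56 came from taking the shortest entry of a name, although each member has 1 entry. A reversal was counted only for changes of 1 or more, and 0 of those turned in sign. Smaller changes did turn: with no rescaling, Hnf4a at 168 h went from 0.15 to -0.77 and Foxa3 from 0.21 to -0.67. With no rescaling the median of tested genes moved to -0.25, -0.18, 0.31, -0.20, 0.11, -0.18 and -0.57 from 3 to 168 h, and that of the members to -0.13, 0.00 (just below 0), 0.25, 0.03, 0.09, 0.20 and -0.72, of which the 8 h and 168 h values turned in sign. Chosen after seeing the data, leaving out the 3 h library gave 5 higher and 9 lower, and leaving out the 168 h library 4 and 7. Members with a region in every list numbered 1 within 1 kb, 4 within 5 kb and 3 in the upper part of each list by score for C/EBPalpha (7 at first), 1, 4 and 4 for C/EBPbeta (8) and 0 within 1 kb and 0 within 5 kb for Egr1 (3). Of tested genes, 13.6% within 1 kb, 30.9% within 5 kb and 24.1% in the upper part had a region in every C/EBPalpha list. For C/EBPbeta these shares were 16.6%, 35.2% and 27.5%, and for Egr1 3.79% within 1 kb and 11% within 5 kb. The 1 of 8 members within 1 kb did not stand above the C/EBP shares. By a region's nearest edge within 10 kb the members numbered 7, 8 and 4, with Prox1 added for Egr1. The shares of tested genes were 41.7%, 47.6% and 20.5%. Lists cut to 20061 regions gave 6 members for C/EBPalpha and 6 for C/EBPbeta, against 33.2% and 33.1%. Joining regions that share 1 bp gave 99 sites and 5 members with a constant one, without Onecut1. The share of tested genes was not counted for this joining. No paired analysis was possible because each antibody and time had 1 sample.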
